A study of Arabidopsis thaliana with 12 samples.

Results

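AT5G39980, AT5G64150, AT2G28540 and AT1G03810 are 4 nuclear genes of Arabidopsis thaliana whose products belong to families that bind or process nucleic acids or serve translation. AT5G39980 belongs to the pentatricopeptide repeat family, AT5G64150 to the PrmC-type release factor methyltransferases, AT2G28540 to the RNA-binding proteins and AT1G03810 to the proteins with an OB fold. The families come from the description by which the genes were grouped, since the annotation used here lists each of them by its locus code alone, and where in the cell their products act was not examined. The genes were taken by name, each through the array probe annotated to that gene and to no other. All 4 were found, out of 689 genes with such a probe, and each had 1 such probe. AT1G03810 also shares 1 further probe with other genes, which was not used. The 4 had been selected on the difference of their intensities between the CO2 groups in these same samples, so their differences are given here as a description, without a test.

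Pentatricopeptide repeat proteins are chains of short helical repeats that recognise stretches of single-stranded RNA, and in plants most of them enter chloroplasts or mitochondria, where they take part in the splicing, editing, stabilisation or translation of organelle transcripts. Release factors end translation at stop codons, and in Escherichia coli PrmC methylates a conserved glutamine of these factors, which makes them more efficient. The OB fold is a small beta barrel found in many proteins that hold single-stranded DNA or RNA, among them the single-stranded DNA-binding proteins of replication and repair.

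Transcript levels were measured in total RNA of wild-type plants of the ecotype Columbia 0, with 3439 probes on 12 samples. The 6 samples of the high-CO2 group came from plants that spent their last 6 d at 1% (v/v) CO2, and the 6 of the normal-CO2 group, labelled 0 d, came from plants at normal CO2. The comparison asks which transcripts differ between plants at high and at normal CO2. The labels give no organ, plant age or number of plants, so the CO2 level cannot be told apart from 6 d of further growth, and lower RNA per cell cannot be told apart from fewer cells of a type that holds the transcript.

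The values are intensities on a scale from 0 to about 100. They were quantile normalized, which gives all samples one distribution except that deposited zeros were kept at 0, and are called normalized intensities. 2 of 14 leaf marker genes had a probe of their own, and none of 12 root marker genes did. Both leaf markers gave signal in every sample: PSBW, a small photosystem II subunit, had normalized intensities between 31.1 and 33.1 at high CO2 and between 17.0 and 36.8 at normal CO2, and PSAN, a photosystem I subunit, had them between 4.89 and 5.76 at high CO2 and between 4.57 and 7.78 at normal CO2.

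The labels number the samples of each group 1 to 6. Samples 1 and 2, 3 and 4, and 5 and 6 were alike as repeats would be: each of the 12 samples correlated best across probes with its partner, with r between 0.919 and 0.981, although nothing in the labels says that they were repeats. By their deviations from the group means, partners correlated between 0.126 and 0.882, so by that measure the pairs were not all equally alike. Samples 5 and 6 of both groups also stood apart from samples 1 to 4 of their own group. The correlation of high-CO2 samples 5 and 6 was 0.901 to 0.917 with the first 4 normal-CO2 samples and 0.837 to 0.866 with the first 4 of their own group, against what their labels say. That of normal-CO2 samples 5 and 6 was 0.796 to 0.803 with the first 4 of their own group and 0.726 to 0.781 with the first 4 high-CO2 samples. Whether samples 5 and 6 carry the right labels was not tested, and every difference over all 12 samples takes them as given. The values of the 4 genes are therefore given by pair as well, and their differences with and without samples 5 and 6. Whether the 6 samples of each group stem from different plants is not stated, and the spread between them may be technical.

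In the high-CO2 samples the pentatricopeptide repeat gene AT5G39980, the methyltransferase gene AT5G64150 and the RNA-binding gene AT2G28540 were 3.19, 3.02 and 2.57 times as high as in the normal-CO2 samples, and the OB-fold gene AT1G03810 was at 0.456 times its normal-CO2 level. Each fold was computed from mean log2 intensities. Each direction held in every one of the 9 comparisons of a high-CO2 pair with a normal-CO2 pair, as it must where the samples of the groups do not overlap. The size of the differences varied widely between those pairs. For AT5G39980 the smallest was 1.15-fold and the largest 11.5-fold.

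AT5G39980 had normalized intensities between 0.629 and 2.04 at high CO2, with a median of 1.24. At normal CO2 they lay between 0.147 and 0.603, with a median of 0.501. The groups did not overlap, but the lowest high-CO2 sample was only 1.04 times the highest normal-CO2 sample. The mean was 1.25 ± 0.556 at high CO2, against 0.410 ± 0.196 at normal CO2 (mean ± SD, n = 6 each), and the log2 difference was 1.68 (SE 0.43). This SE and those below take the 6 samples of a group as independent. Since samples were alike in pairs, they may be too small. Pairs 1-2, 3-4 and 5-6 averaged 1.24, 1.87 and 0.652 in the high-CO2 group and 0.501, 0.568 and 0.162 in the normal-CO2 group. Samples 5 and 6 were the 2 lowest of both groups, and at high CO2 their mean log2 value lay 0.29 above that of normal-CO2 samples 1 to 4. Samples 1 to 4 alone gave a log2 difference of 1.51.

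AT5G64150 lay between 0.385 and 0.862 at high CO2, with a median of 0.747, and between 0.0889 and 0.319 at normal CO2, with a median of 0.262. The groups were separate, and the lowest high-CO2 sample was 1.21 times the highest normal-CO2 sample. Its mean was 0.661 ± 0.212 at high CO2 against 0.230 ± 0.0967 at normal CO2 (mean ± SD, n = 6 each), a log2 difference of 1.60 (SE 0.36). Pairs 1-2, 3-4 and 5-6 averaged 0.747, 0.842 and 0.394 in the high-CO2 group and 0.262, 0.316 and 0.110 in the normal-CO2 group. The third pair was again the lowest in both groups. Without it the log2 difference was 1.46.

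AT2G28540 lay between 0.734 and 1.29 at high CO2, with a median of 1.08, and between 0.205 and 0.544 at normal CO2, with a median of 0.443. The lowest high-CO2 sample was 1.35 times the highest normal-CO2 sample. The mean was 1.02 ± 0.238 at high CO2, against 0.409 ± 0.130 at normal CO2 (mean ± SD, n = 6 each), a log2 difference of 1.36 (SE 0.26). Pairs 1-2 and 3-4 were close to each other, at 1.08 and 1.26 in the high-CO2 group and at 0.486 and 0.485 in the normal-CO2 group. Pair 5-6 was lower, at 0.735 in the high-CO2 group and 0.255 in the normal-CO2 group. The log2 difference over samples 1 to 4 was 1.27.

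AT1G03810 ran the other way. It lay between 0.477 and 0.718 at high CO2, with a median of 0.659, and between 1.05 and 2.05 at normal CO2, with a median of 1.13. No high-CO2 sample reached the normal-CO2 range, and the lowest normal-CO2 sample was 1.46 times the highest high-CO2 sample. Its mean was 0.623 ± 0.0875 at high CO2 against 1.42 ± 0.484 at normal CO2 (mean ± SD, n = 6 each), a log2 difference of -1.13 (SE 0.22). The 3 high-CO2 pairs averaged 0.686, 0.570 and 0.613. At normal CO2 pairs 1-2 and 3-4 averaged 1.114 and 1.095, and pair 5-6 averaged 2.04. The size of the difference therefore rested in part on normal-CO2 samples 5 and 6, and the log2 difference over samples 1 to 4 was -0.83, or 0.562 times the normal-CO2 level.

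**Figure D1:**
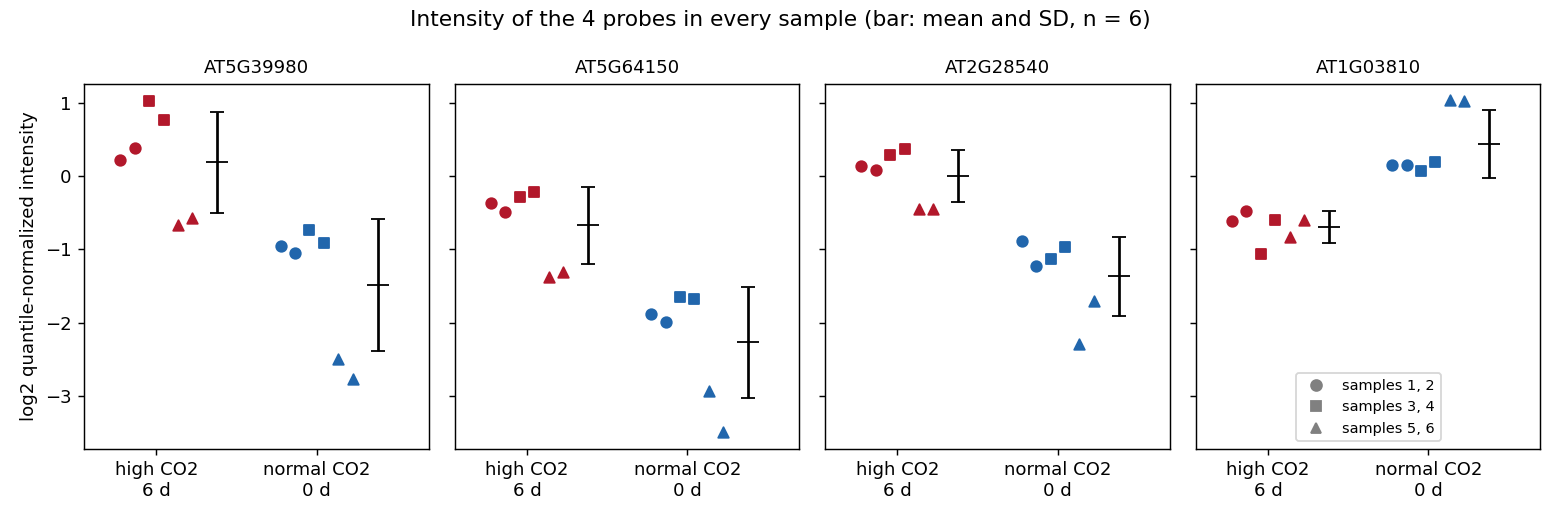
Log2 of the quantile-normalized intensity (vertical axis) of each gene's probe in the 6 high-CO2 and the 6 normal-CO2 samples. Points are samples, shaped by pair, and bars give the mean and SD of the 6 log2 values. Samples 5 and 6 (triangles) are the lowest of both groups for AT5G39980, AT5G64150 and AT2G28540 and the highest normal-CO2 samples for AT1G03810.

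Log2 differences of the 3349 probes tested ran from -3.26 to 2.61, with a median of -0.018. Their 5th and 95th percentiles were -1.08 and 1.12, and the 4 genes lay outside these. AT5G39980, AT5G64150 and AT2G28540 had the 32nd, 42nd and 90th largest positive difference, and AT1G03810 the 130th largest negative one. In limma over the 12 samples 12.5% of tested probes passed at a Benjamini-Hochberg adjusted threshold of 0.05 (5.52% higher and 6.96% lower at high CO2), and 8.3% had groups that did not overlap (3.55% higher and 4.75% lower). All 4 genes met both, 3 as higher and 1 as lower, which follows from the way they were selected, and nothing is read from that count. Over the 3 pair means of each group 0 of the 3349 probes passed in limma, while 408 had a p under 0.05 before adjustment and no adjusted p was under 0.407.

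**Figure D2:**
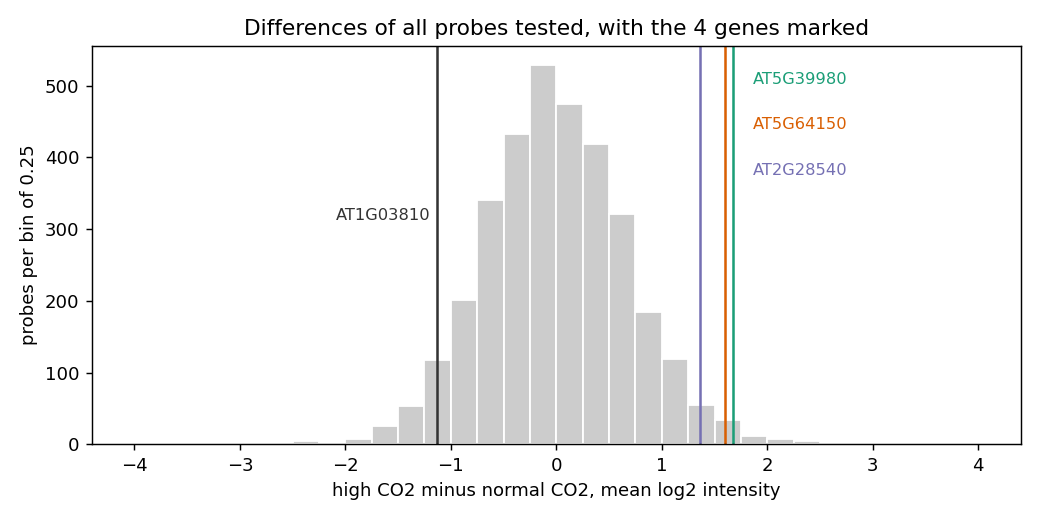
Number of probes (vertical axis) by log2 difference, high CO2 minus normal CO2 (horizontal axis), for the 3349 probes tested, in bins of 0.25. Vertical lines mark AT1G03810 at -1.13, AT2G28540 at 1.36, AT5G64150 at 1.60 and AT5G39980 at 1.68.

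The rank of a probe within its own sample does not depend on how samples are scaled to one another. It orders the brightness of probes, not the abundance of transcripts. AT5G39980 stood at the 78.1 to 93.5 percentile of all 3439 probes at high CO2 and at the 33.1 to 77.2 percentile at normal CO2. AT5G64150 stood at the 64.9 to 84.2 percentile at high CO2 and at the 21.5 to 58.8 percentile at normal CO2, the largest shift in mean rank of the 4 genes, 31.6 percentile points. AT2G28540 stood at the 81.3 to 89.5 percentile at high CO2 and the 43.5 to 74.7 percentile at normal CO2. AT1G03810 moved least, to the 71.1 to 80.9 percentile at high CO2 against the 87.0 to 93.6 percentile at normal CO2. The ranks of the groups did not overlap for any of the 4, and for AT5G39980 they missed each other by under 1 percentile point. The share of all probes with separate ranks was not computed. The 4 genes were selected on their difference between the groups, so nothing is read from this count.

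Pair 5-6 gave the lowest percentiles of both groups for AT5G39980, AT5G64150 and AT2G28540. Its mean percentile at normal CO2 was 35.9 for AT5G39980, 25.8 for AT5G64150 and 50.5 for AT2G28540, against 72.5 and 75.6, 52.0 and 58.5, and 71.4 and 71.6 in pairs 1-2 and 3-4. At high CO2 its mean percentile was 78.9, 65.6 and 81.4 for these 3 genes. AT1G03810 differed the other way, with pair 5-6 at 93.5 at normal CO2, above 87.8 and 87.6 in the other pairs, and at 77.4 at high CO2, between the other pairs at 80.0 and 75.2.

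**Figure D3:**
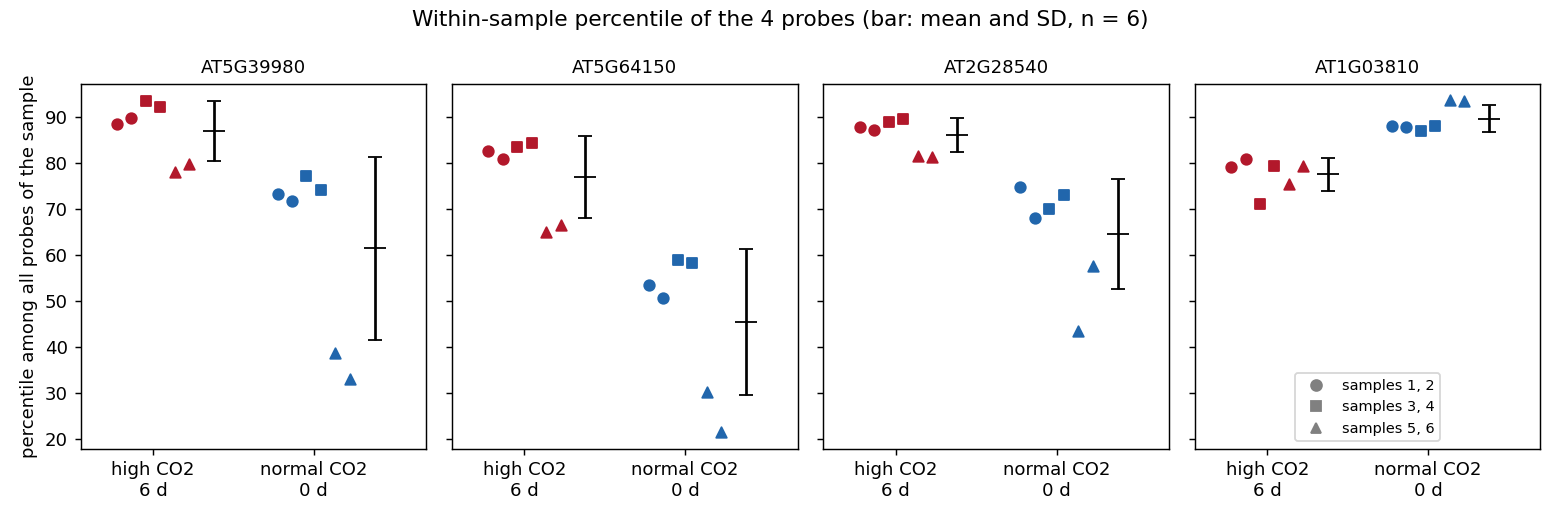
Percentile of each gene's probe among the 3439 probes of the same sample (vertical axis), by sample and group. Points are samples, shaped by pair, and bars give the mean and SD (n = 6). AT5G39980 stands at the 33.1 percentile and AT5G64150 at the 21.5 percentile in normal-CO2 sample 6, while AT1G03810 stays above the 70th percentile in all 12 samples.

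Within the groups, the 3 genes that were higher at high CO2 deviated to the same side. In all 12 samples AT5G39980, AT5G64150 and AT2G28540 lay on the same side of their own group means. The samples of a pair resemble each other and samples 5 and 6 stand apart, so the 6 samples of a group are not 6 independent points and no correlation across them was computed. The deviation of pair 5-6 from the group mean was -0.81, -0.67 and -0.44 on the log2 scale at high CO2 for AT5G39980, AT5G64150 and AT2G28540. At normal CO2 it was -1.15, -0.94 and -0.63, in the same order of size.

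AT1G03810 did not follow one rule across the groups. At normal CO2 pair 5-6 deviated by 0.59 from the group mean, opposite to the other 3 genes. At high CO2 the same pair deviated by -0.016, and the 3 pair means covered a range of 0.287 on the log2 scale, less than the largest difference of 0.474 between the samples of a pair. AT1G03810 lay on the opposite side of its group mean from AT5G39980 in 8 of the 12 samples. It lay on the same side in 4, all of them at high CO2. The counts were identical for AT5G64150 and AT2G28540. They had to be, since these genes and AT5G39980 deviated to the same side in every sample. Partners of a pair count here as separate samples, so nothing is read from the counts.

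Many probes shared the shift of samples 5 and 6. In normal-CO2 samples 5 and 6, 30.7% of the 3349 probes were lower than in normal-CO2 samples 1 to 4 by more than 0.5 on the log2 scale and 30.9% were higher by more than 0.5. In that shift AT5G39980 stood at the 4.9 percentile of all probes, AT5G64150 at 8.7, AT2G28540 at 17.7 and AT1G03810 at 80.4. In the corresponding shift at high CO2 they stood at the 7.8, 11.0, 19.3 and 47.0 percentile. High-CO2 samples 5 and 6 set against normal-CO2 samples 1 to 4 left log2 differences of 0.29, 0.45 and 0.60 for the 3 higher genes and -0.86 for AT1G03810. Among all probes these stood at the 72.1, 81.0, 87.3 and 6.7 percentile. All lay between the 5th and 95th percentiles of that comparison, -0.952 and 0.915. AT2G28540 thus kept the largest of the 3 positive differences in that setting, whereas over all samples it had the smallest.

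**Figure D4:**
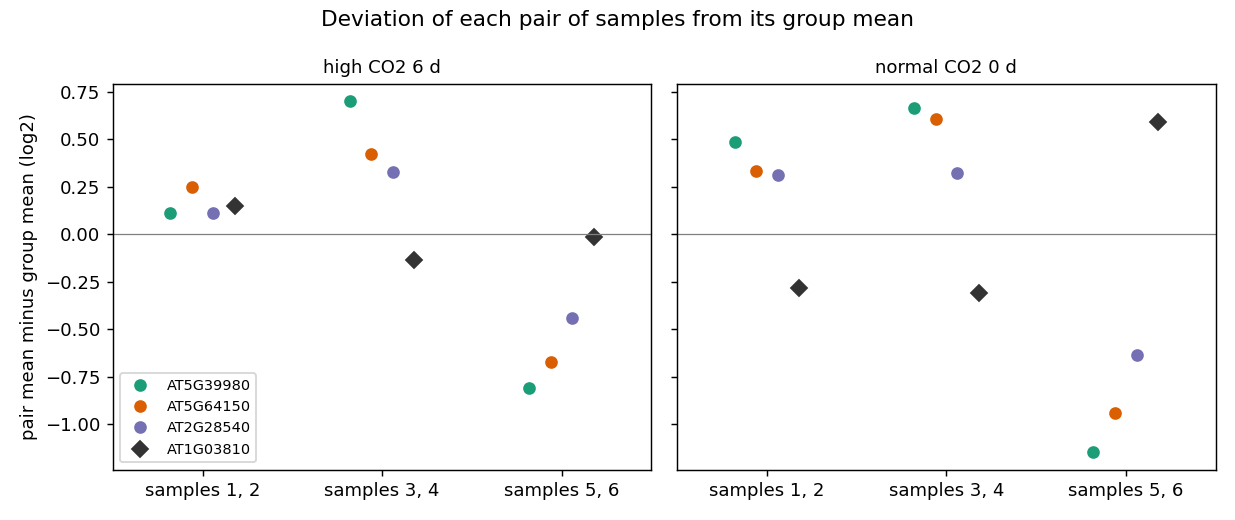
Mean log2 normalized intensity of each pair of samples minus the mean of its group (vertical axis), for high CO2 (left) and normal CO2 (right). Circles are the 3 genes higher at high CO2 and diamonds AT1G03810. Pair 5-6 lies below 0 for the circles in both groups, and for the diamonds it lies at -0.016 at high CO2 but at 0.59 at normal CO2.

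The spread between the samples of a pair was mostly small beside the spread between pairs. For AT5G39980 the samples of a pair differed by at most 0.263 on the log2 scale at high CO2 and 0.266 at normal CO2, while the pair means ranged over 1.51 and 1.81. For AT5G64150 the largest difference within a pair came to 0.121 at high CO2 and to 0.565 at normal CO2, against ranges of pair means of 1.09 and 1.55. AT2G28540 had 0.082 and 0.58 within pairs and 0.772 and 0.954 between them. The 2 large differences at normal CO2 were both in pair 5-6, where AT5G64150 had 0.132 and 0.0889 and AT2G28540 had 0.205 and 0.306.

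Ratios of 2 probes within one array cancel a factor that scales a whole sample, and were taken on the deposited values. The level of such a ratio depends on the probes, and only its change between groups is meant here. The log2 ratio of AT5G39980 to AT5G64150 averaged 0.785 ± 0.168 at high CO2 and 0.904 ± 0.285 at normal CO2 (mean ± SD, n = 6 each), a difference of -0.119 that was smaller than the SD of either group. The ratio of AT5G39980 to AT2G28540 changed by 0.258 and that of AT5G64150 to AT2G28540 by 0.377 on the log2 scale, and in both the groups overlapped. The 3 ratios to AT1G03810 were separate between the groups. That of AT5G39980 lay between 0.038 and 1.63 at high CO2 and between -3.84 and -0.98 at normal CO2, a 7.12-fold change. Those of AT5G64150 and AT2G28540 to AT1G03810 changed 7.73-fold and 5.95-fold. This separation follows from the opposite directions for which the genes were selected, and nothing is read from it.

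How large each difference was did depend on the scaling. The median deposited intensity of a sample was 0.174 to 0.390 at high CO2 and 0.160 to 0.256 at normal CO2, and with values as deposited the median probe was 0.449 higher at high CO2 on the log2 scale. Relative to that shift the deposited values gave 1.42 for AT5G39980, 1.54 for AT5G64150, 1.16 for AT2G28540 and -1.41 for AT1G03810. With samples scaled to one median, where the median probe moved by -0.081, the differences relative to it were 1.361, 1.48, 1.104 and -1.47. Groups stayed separate for all 4 genes with values as deposited. After median scaling they overlapped for AT5G39980, at 0.707 to 1.29 at high CO2 against 0.143 to 0.744 at normal CO2, and 5 of its 6 high-CO2 samples lay above the normal-CO2 range. The groups of the other 3 genes stayed separate there too. The share of all probes with separate groups was not computed for either of these scalings. The genes were selected on this difference, so nothing is read from how many stayed separate.

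**Figure D5:**
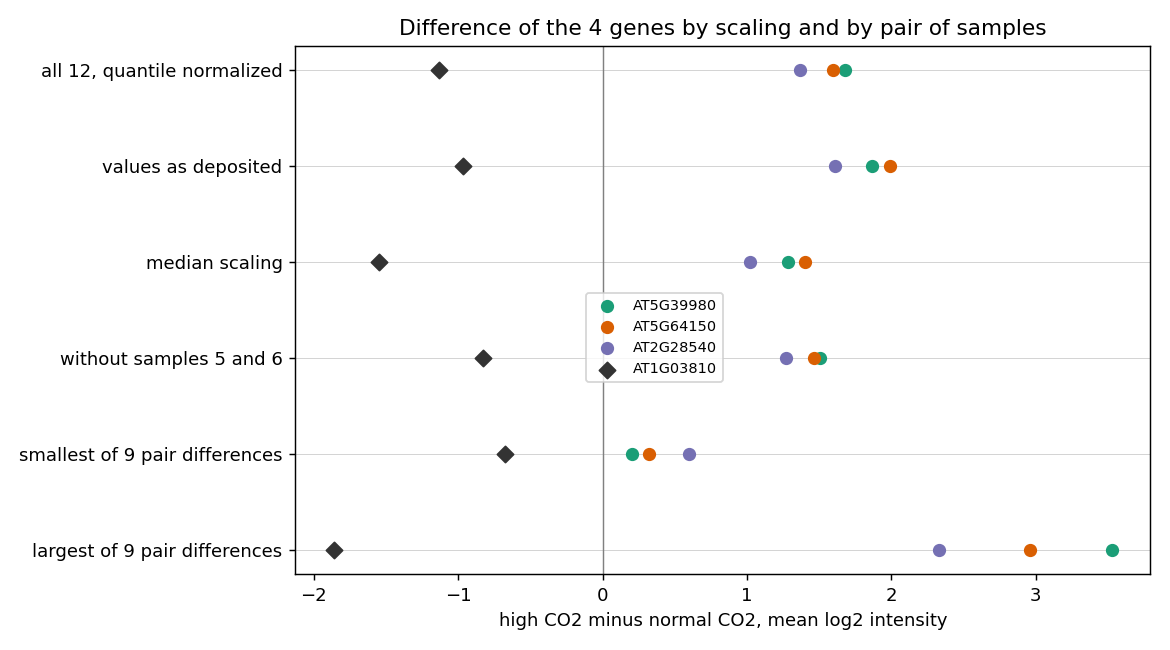
Log2 difference, high CO2 minus normal CO2 (horizontal axis), of the 4 genes under 3 scalings, without samples 5 and 6, and as the smallest and the largest of the 9 differences between a high-CO2 and a normal-CO2 pair. Circles are AT5G39980, AT5G64150 and AT2G28540, which stay above 0, and diamonds are AT1G03810, which stays below 0; the smallest pair difference of AT5G39980 is 0.201.

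The genes with the most similar profiles were looked for among the other 667 single-gene probes tested, by the root mean square difference between log2 profiles centred over the 12 samples. This distance includes the group difference on which the 4 genes were selected. AT5G39980 and AT5G64150 were each other's nearest gene, at a distance of 0.213, where the median distance of all others was 1.22 from AT5G39980 and 1.13 from AT5G64150. With profiles centred within each group, which takes the group difference away, each was the second nearest to the other (distance 0.21). AT2G28540 then ranked 26th for AT5G39980 and 21st for AT5G64150, and counted from AT2G28540 these ranked 87th and 33rd.

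The next neighbours of AT5G39980 were AT1G44920 (distance 0.327) and AT5G44000 (0.338). AT1G44920 averaged 0.748 ± 0.385 at high CO2 and 0.352 ± 0.171 at normal CO2, and AT5G44000 averaged 0.418 ± 0.210 at high CO2 and 0.156 ± 0.0984 at normal CO2 (mean ± SD, n = 6 each). Those of AT5G64150 were AT5G46560 (0.278) and AT1G71910 (0.307), with log2 differences of 1.47 and 1.35. AT2G28540 was nearest to AT1G79480 (0.289), AT1G67800 (0.332) and AT5G64150 (0.339), and the first 2 of these had log2 differences of 1.02 and 0.841. The genes nearest to AT1G03810 were CML30, a calmodulin-like protein gene, at 0.24, AT3G57630 at 0.257 and AT1G51350 at 0.317. CML30 averaged 0.598 ± 0.0912 at high CO2 and 1.05 ± 0.407 at normal CO2 (mean ± SD, n = 6 each), and the log2 differences of AT3G57630 and AT1G51350 were -1.34 and -1.13. With its sign turned, AT1G03810 was the second nearest to AT2G28540 (0.322), the 8th nearest to AT5G64150 and the 11th nearest to AT5G39980. Counted from AT1G03810, AT2G28540 with its sign turned was the 5th nearest, AT5G64150 the 53rd and AT5G39980 the 113th of 667. The sign-turned distances include the opposite group differences for which the genes were selected, and nothing is read from these ranks. Sign-turned ranks with profiles centred within each group were not computed.

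Lists for the families of the 4 genes and for organelle ribosomal proteins were written by locus and by words in gene names. The methyltransferase list took in methyltransferases in general and was not limited to the PrmC type of AT5G64150. A gene named by its locus code alone was found only if its locus was written in. Other genes of these families may therefore be missing, and the lists do not stand for whole families. Of the other genes found through the lists, 7 had a probe of their own. They were OTP85, a pentatricopeptide repeat protein of organelle transcript processing, OSB1, an organelle single-stranded DNA-binding protein, CHLM, the methyltransferase of magnesium protoporphyrin IX in chlorophyll synthesis, and the 4 plastid ribosomal protein genes AT3G13120, AT5G65220, AT1G64510 and AT3G54210. No further gene of the RNA-binding or translation factor lists had one. AT5G65220 was listed at 0 in all 12 samples and was not tested. In limma over the 12 samples, where 12.5% of all probes passed, 0 of the other 6 were called higher and 0 lower. An unadjusted p under 0.05 was found for 1 of the 6, AT1G64510, and for 1011 of all 3349 probes. Their median log2 difference was -0.164, beside -0.018 over all probes tested.

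The pentatricopeptide repeat gene OTP85 averaged 0.111 ± 0.0334 at high CO2 and 0.109 ± 0.0811 at normal CO2 (mean ± SD, n = 6 each). Its log2 difference was 0.108 (SE 0.42, limma adjusted p = 0.89), and 2 normal-CO2 samples lay at the floor of 0.0398 to which low values were raised before taking log2. OSB1 lay between 0.107 and 0.314 at high CO2 and between 0.197 and 0.342 at normal CO2, with a log2 difference of -0.376 (limma adjusted p = 0.319). CHLM had a log2 difference of -0.127 (limma adjusted p = 0.793). The signs of OSB1 and CHLM turned with values as deposited, to 0.234 and 0.323. The difference of OTP85 moved more, to 1.05 in the deposited values and to 0.869 after median scaling. It turned to -0.189 with the floor doubled, to -0.022 without high-CO2 sample 2, and to -0.155 without normal-CO2 sample 1 and likewise without normal-CO2 sample 2. Whether OTP85 differed in its response from AT5G39980, or OSB1 from AT1G03810, was not tested.

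Among the ribosomal protein genes, AT1G64510 averaged 0.177 ± 0.0868 at high CO2 and 0.260 ± 0.0269 at normal CO2 (mean ± SD, n = 6 each; log2 difference -0.666, limma adjusted p = 0.107). It passed without high-CO2 sample 3, where 6.87% of all probes passed (log2 difference -0.882, limma adjusted p = 0.0291). AT3G54210 had a log2 difference of 0.121 (limma adjusted p = 0.634), which was -0.331 after median scaling. AT3G13120 had -0.201 over all samples (limma adjusted p = 0.664). Once samples 5 and 6 of each group were left out, where 37.9% of all probes passed, it was called lower, at -0.739 (limma adjusted p = 0.00941), and without normal-CO2 samples 5 and 6 alone, where 14.4% passed, at -0.613 (limma adjusted p = 0.0424). Over pair means 0 of the 6 passed in limma, where 0 of all 3349 probes did.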

How the data were processed

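The table analysed holds the 3439 probes and 12 samples of the series. The deposited values were taken as linear intensities, which their range alone does not prove. The largest value of every sample was about 100. How the authors corrected background and normalized, and on which array, is not given in the sources used here. Between 133 and 398 probes per sample were listed at 0, and 1 to 6 lay above 99. The number of arrays limits the precision. Groups and sample numbers come from the labels.

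Intensities were quantile normalized (limma 3.58.1, R 4.3.3), with deposited zeros kept at 0. Values under 0.0398, the highest 1st percentile of any sample's positive normalized values, were raised to this floor (12.5% of values) and log2 was taken. None of the 4 genes had a value there. One limma model of the group was fitted to 3349 probes (90 lay at the floor in every sample and were left out), and p-values were adjusted over all of them by Benjamini-Hochberg. It gives the standard errors and the calls of list genes, and it takes the 6 samples of a group as independent. With pairs as a random block the correlation within pairs was estimated at 0.785. The standard errors and adjusted p-values may therefore be too small. The model was also run on simulated data, in which the 12 samples were drawn independently, without pairs. That run cannot show whether the standard errors and calls hold for samples that are alike in pairs. The random block used statmod 1.5.0.

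Probes were named through the platform annotation: 692 had 1 gene, 870 several and 1877 none given, and 690 of the 692 matched RefSeq genes of TAIR10.1, used only for names. The named genes are the 4 genes, the 3 nearest profiles of each, and from each list the called genes, up to 4, with up to 2 uncalled ones of lowest p. AT3G13120 and AT5G65220 were described as well because the lists are short. The 4 genes, the lists and the tests were chosen with earlier results of these data known. Same-numbered samples of the groups deviated from their group means with correlations from -0.078 to 0.158, so the numbers were not taken to pair the samples. Alternatives covered the scaling, the floor, filters on dim probes, a block for the replicate number, averaged pairs, a random block for pairs, and samples left out.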

Additional observations from a re-analysis of the deposited data

Results flagged for a closer look

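Of 20 sets of 6 samples examined, for the 4 genes and the 6 other list genes tested, 1 held a sample far from the rest, in that the gap to its nearest neighbour was over 0.625 of the whole range. Chance gives about 1 such set in 20 if the samples are independent. AT1G64510, a plastid ribosomal protein gene, had a log2 value of -2.248 in normal-CO2 sample 3, while the other 5 normal-CO2 samples lay between -1.974 and -1.819, so that the gap was 0.639 of the range. No sample of AT5G39980, AT5G64150, AT2G28540 or AT1G03810 stood apart in this way. The rule cannot flag a sample whose partner lies close to it, so nothing is concluded from this for the 4 genes. For AT1G03810 the log2 values of normal-CO2 samples 5 and 6 were 1.037 and 1.02. Those of normal-CO2 samples 1 to 4 lay between 0.072 and 0.189, and the set was not flagged.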

How the results depend on the processing

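The 4 genes kept their direction under all 26 alternatives each, which for those that only leave samples out or change the model follows from groups that do not overlap. Their log2 differences ran from 1.101 to 2.081 for AT5G39980, from 1.125 to 1.987 for AT5G64150, from 1.023 to 1.61 for AT2G28540 and from -1.551 to -0.831 for AT1G03810, whose value after median scaling, -1.551, was the 1 that moved by more than the spread between samples. Leaving out single samples gave 1.419 to 1.848, 1.351 to 1.737, 1.179 to 1.461 and -1.207 to -1.014 in the same order, and percentile differences of 19.9 to 28.7, 26.8 to 34.3, 17.3 to 23.6 and -12.8 to -10.8. Each gene has 1 single-gene probe, so the mean over probes could not be tried. Of all probes 418 were called (185 higher, 233 lower). Values as deposited gave 326 higher and 65 lower, and there were 85 higher after median scaling, and 0 higher and 0 lower over pair means and with pairs as a random block. Without samples 5 and 6 of both groups 1270 passed (608 higher, 662 lower), and without high-CO2 samples 5 and 6, a setting chosen after seeing the data, 900 (431 higher, 469 lower). Without single samples 230 to 580 passed (90 to 264 higher, 140 to 316 lower); the lowest count was without high-CO2 sample 3 and the highest without high-CO2 sample 5. Of the 6 other list genes 1 passed without samples 5 and 6 of both groups and 1 without those of normal CO2 alone, and 0 to 1 without single samples. With the replicate number as a block, which leaves the log2 differences as they were (1.675, 1.596, 1.364 and -1.134), 460 probes passed (222 higher, 238 lower); 2 of the 6 high-CO2 samples deviated most like the normal-CO2 sample of their own number. The cause of these changes was not tested.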
